A study of Homo sapiens with 6 samples.

Results

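The JAK kinases, the STAT transcription factors and their inhibitors were followed through 10 genes of this pathway: JAK1, JAK2, TYK2, STAT3, STAT5B, STAT6, SOCS2, SOCS3, CISH and PIAS3. They were chosen by symbol among the 23228 genes of the count tables, and all 10 had enough reads to be tested, as did 12663 genes in all. The RNA came from RL95-2, an established human endometrial carcinoma line, in 3 control and 3 ADP-CM libraries. Both groups were kept for 24 h without serum in RPMI mixed with an equal volume of a second medium. In controls that was unconditioned DMEM, and in the other group it was ADP-CM, DMEM in which primary adipocytes from human visceral fat had been cultured. The number of fat donors behind the medium was not given in the sources used here. The labels do not say that replicates were separate cultures, so p-values measure only the spread between these libraries.

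A cytokine bound to its receptor brings JAK kinases together, and these phosphorylate the receptor and the STATs docked on it. Phosphorylated STATs pair, enter the nucleus and bind DNA. SOCS proteins and CISH are made in response and switch the receptor off, while PIAS proteins restrain STATs in the nucleus. LIF and IL6 act through the shared subunit gp130, with JAK1, JAK2 and TYK2 as kinases and STAT3 as the main STAT. Phosphorylation is not seen in RNA, so the values here are transcript levels of the parts and not their activity.

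STAT dimers are known to bind the inverted repeat TTCNNNGAA, and the promoters of the feedback genes are shown because they are the members that STATs are known to induce. RefSeq start sites on GRCh38.p14 matched 9 of the 10 genes (SOCS2 had no entry), with 15 start sites in all. Each window runs from 250 bases before the start to 50 after it, is read 5′ to 3′ along the gene, and was placed on GRCh37, the build of the counts, by an exact match. The CISH window lies at chr3:50649156-50649455 and that of the first of 2 SOCS3 start sites at chr17:76356957-76357256, both on the minus strand. The SOCS3 window is upstream of the GENCODE model of the gene. Capitals mark TTCNNNGAA and the variant with a shorter spacer, TTCNNGAA. Both patterns read the same on either strand.
CISH: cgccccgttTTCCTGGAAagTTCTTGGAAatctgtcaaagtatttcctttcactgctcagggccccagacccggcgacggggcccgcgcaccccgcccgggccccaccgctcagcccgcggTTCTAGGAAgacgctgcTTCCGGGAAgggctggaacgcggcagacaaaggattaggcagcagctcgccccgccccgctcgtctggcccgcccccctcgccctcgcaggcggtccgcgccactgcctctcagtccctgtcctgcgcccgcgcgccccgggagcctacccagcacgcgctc
SOCS3: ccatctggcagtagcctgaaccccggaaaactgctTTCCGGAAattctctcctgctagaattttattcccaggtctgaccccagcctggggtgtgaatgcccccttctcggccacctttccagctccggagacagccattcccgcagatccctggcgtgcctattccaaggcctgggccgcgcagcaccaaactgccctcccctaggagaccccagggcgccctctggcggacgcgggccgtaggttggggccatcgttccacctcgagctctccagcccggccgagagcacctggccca

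CISH held 4 copies of TTCNNNGAA, in pairs that began 241 and 230 and then 129 and 112 bases before the start. Of 35116 promoter windows of this length, 7.66% held the pattern at all and 7 held 4 or more copies. None of the other 14 windows of these genes held it. For SOCS3 the bases just before the GENCODE start, at 76356158, were not searched. Its first window lies upstream of them, and its other window, chr17:76355699-76355998, lies inside the gene model. The shorter TTCNNGAA was in 3 of the 15 windows, once each in SOCS3 at 215 bases before the start, in STAT3 at 131 bases and in 1 of the 3 JAK1 windows at 225 bases. It was in 7.74% of all windows. A match is a run of letters and not a bound site.

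Of the 10 genes 3 were higher with ADP-CM, SOCS3, JAK1 and STAT6, where a gene counted as changed if its p-value from the quasi-likelihood test of edgeR, adjusted after Benjamini and Hochberg, lay under 0.01. None was lower, by edgeR or by DESeq2, and none of the lower ones reached an unadjusted p under 0.05 with either tool. Over all tested genes 26.5% passed in either direction, 13.5% as higher and 13% as lower. The 30% among these genes is near that background, and it is no result about them as a set. Their median log2 fold change was 0.12, against 0.00 over all tested genes. The control and ADP-CM libraries did not overlap for 4 of the 10, where the share over all tested genes was 45.5%.

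**Figure D1:**
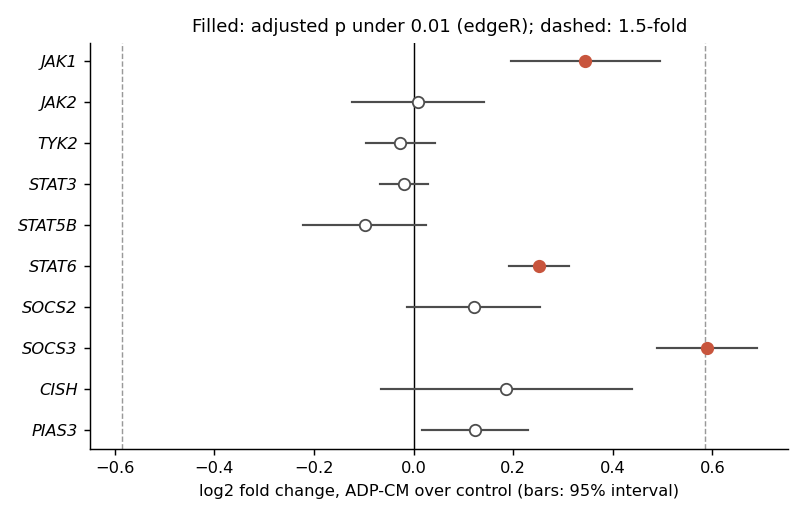
Log2 fold change of each gene in ADP-CM over control with its 95% interval, from edgeR on 3 libraries per group. Filled points passed an adjusted p-value of 0.01, and dashed lines mark 1.5-fold. SOCS3 sits on the line at 0.59, JAK1 and STAT6 lie between it and 0, and the interval of CISH, the least counted gene, is the widest, from -0.07 to 0.44.

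Of the 4 inhibitors among these genes SOCS3 passed the test, and SOCS2, CISH and PIAS3 did not. SOCS3 (chromosome 17, 76352859 to 76356158, GRCh37) binds gp130 and JAKs and shuts off signaling by LIF and IL6. SOCS3 was at 30.4, 31.4 and 32.2 CPM in control replicates 1, 2 and 3 and at 46.5, 48.4 and 46.7 in the ADP-CM replicates, where CPM is the read count scaled to the library's total, corrected by TMM. Every ADP-CM library was above every control library. The log2 fold change was 0.59 (standard error 0.050; adjusted p = 2.00e-15, edgeR), and the 95% interval of the fold ran from 1.40 to 1.61. SOCS3 was the only one of the 10 past the fold limit of 1.5, which 2.27% of all tested genes passed in either direction, but its interval lies on both sides of that limit. Without control replicate 1 or ADP-CM replicate 2 it no longer passed the limit, while its adjusted p-value never exceeded 4.56e-12 when edgeR was refitted with any 1 library left out. By its p-value SOCS3 ranked 138 of the 12663 tested genes.

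SOCS2 (chromosome 12, 93963590 to 93977263) is best known as a brake on growth hormone receptor signaling. SOCS2 was at 23.4, 20.4 and 20.6 CPM in control and at 25.4, 22.3 and 22.3 in ADP-CM. The groups overlapped, because control replicate 1 lay above 2 of the ADP-CM libraries. The log2 fold change of SOCS2 was 0.12 with an interval of -0.01 to 0.25 (adjusted p = 0.153, edgeR), so a rise of up to 1.19-fold could not be told from none.

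CISH (chromosome 3, 50643920 to 50649205), the founding SOCS box gene and a well-known STAT5 target, had the fewest reads of the 10, from 79 to 124 per library. CISH was at 4.87, 5.86 and 5.73 CPM in control and at 6.13, 5.89 and 6.74 in ADP-CM. All ADP-CM libraries were above the controls, by as little as 5.89 against 5.86. Its log2 fold change of 0.19 had an interval of -0.07 to 0.44 (adjusted p = 0.255, edgeR). For CISH, whose promoter window holds the 4 copies of TTCNNNGAA, a change was not detectable at this depth. Exons of MAPKAPK3 on the opposite strand cover 5.30% of the CISH transcript, and the strand setting of the counting was not given.

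PIAS3 (chromosome 1, 145575233 to 145586546) encodes a nuclear inhibitor of STAT3 that also acts as a SUMO ligase. PIAS3 was at 40.4, 35.7 and 33.8 CPM in control and at 39.8, 40.5 and 39.1 in ADP-CM. Control replicate 1 stood at the level of the ADP-CM libraries and the other controls were below them. The log2 fold change was 0.12 (adjusted p = 0.0632, edgeR), and it became 0.20 with an adjusted p of 0.00585 without control replicate 1. Exons of NUDT17 on the opposite strand cover 14.9% of the PIAS3 transcript, and the strand setting of the counting was not given in the sources used here.

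**Figure D2:**
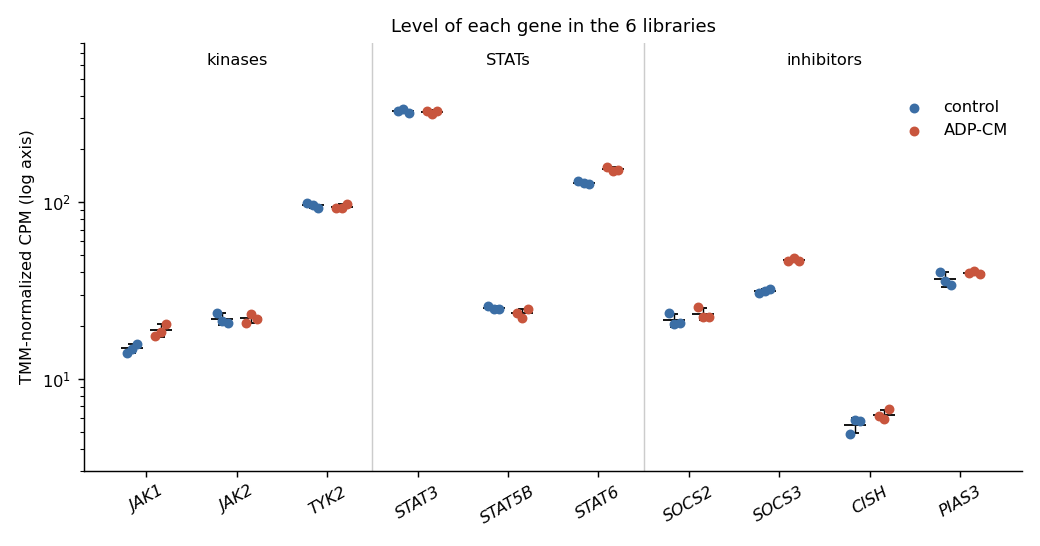
TMM-normalized CPM on a log axis for each gene in the 3 control and 3 ADP-CM libraries (points), with mean and SD (bars). SOCS3, JAK1 and STAT6 show separate groups, and CISH does so by a small margin. STAT3 is the most counted gene and CISH the least.

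Among the kinases only JAK1 passed the test. JAK1 (chromosome 1, 65298906 to 65533437) is the kinase on which gp130 and interferon receptors depend most. JAK1 was at 14.1, 14.8 and 15.7 CPM in control and at 17.6, 18.5 and 20.6 in ADP-CM, without overlap. The rise was 1.27-fold with an interval of 1.14 to 1.41 (adjusted p = 0.00016, edgeR). It was between 0.28 and 0.39 on the log2 scale when single libraries were left out, lowest without ADP-CM replicate 3, and its largest adjusted p-value under any setting was 0.00825, from DESeq2.

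JAK2 (chromosome 9, 4984390 to 5129948) serves gp130 and the growth hormone, erythropoietin and leptin receptors. JAK2 was at 23.7, 21.3 and 20.6 CPM in control and at 20.6, 23.4 and 21.9 in ADP-CM, with full overlap of the groups. Its interval of -0.12 to 0.14 on the log2 scale leaves room for changes of up to 1.10-fold upwards and to 0.918 of the control level downwards. TYK2 (chromosome 19, 10461209 to 10491284), the partner of JAK1 on interferon and IL6-type receptors, was at 99.1, 95.9 and 93.0 CPM in control and at 92.7, 92.3 and 97.5 in ADP-CM. With an interval of -0.10 to 0.04 on the log2 scale its level was tightly bounded, and the groups overlapped.

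Per kilobase of transcript TYK2 held most of the JAK message. In control TYK2 stood at 22.6 ± 0.723 CPM per kb (SD, n = 3), JAK2 at 3.11 ± 0.228, JAK1 at 2.92 ± 0.159 and JAK3, the kinase of lymphoid receptors, at 0.513 ± 0.104. TYK2 was thus 77.6% of the family sum in control and 75.0% in ADP-CM, while the share of JAK1 went from 10.0% ± 0.784 to 12.5% ± 0.560 (SD, n = 3 each). With the canonical transcript as the length JAK1 and JAK2 did not differ beyond their spread in control. With all annotated exons as the length JAK1 was at 1.13 and JAK2 at 2.76 CPM per kb in control. In ADP-CM their order depends on the length used. There JAK1 was above JAK2 with the canonical transcript (3.71 against 3.13) and below it with all annotated exons (1.43 against 2.78). TYK2 was highest and JAK3 lowest with either length.

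Among the STATs only STAT6 passed the test of the 3 members. STAT6 (chromosome 12, 57489191 to 57525922) carries the signal of IL4 and IL13. STAT6 was at 131, 129 and 127 CPM in control and at 159, 150.2 and 152 in ADP-CM, without overlap. The rise was 1.19-fold with an interval of 1.14 to 1.24, which is 0.25 on the log2 scale (standard error 0.030; adjusted p = 2.46e-10, edgeR). Among the 10 genes it ranked after SOCS3 by p-value, and leaving out single libraries moved it only between 0.23 and 0.27.

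STAT3 (chromosome 17, 40465342 to 40540558), the STAT of LIF and IL6, was the most counted of the 10, with 5301 to 6028 reads per library. STAT3 was at 327, 338 and 319 CPM in control and at 329, 314 and 328 in ADP-CM. The highest and the lowest library were a control and an ADP-CM library, and the groups overlapped. Its interval was -0.07 to 0.03 on the log2 scale (adjusted p = 0.567, edgeR), so at this depth a rise of over 1.02-fold or a fall to under 0.955 of control lies outside it. STAT5B (chromosome 17, 40351194 to 40440651), a STAT of growth hormone and prolactin receptors, was at 25.9, 24.9 and 24.7 CPM in control and at 23.5, 22.1 and 25.0 in ADP-CM. Its log2 fold change of -0.10 had an interval of -0.22 to 0.03, and ADP-CM replicate 3 lay within the range of the controls.

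Of the STAT genes reported here STAT3 had the highest level per kilobase, at 66.6 ± 2.00 CPM per kb in control and 65.8 ± 1.66 with ADP-CM (SD, n = 3 each). STAT6 followed at 32.6 ± 0.501 and 38.8 ± 1.13, STAT2 at 8.91 ± 0.631 and 10.6 ± 0.219 and STAT5B at 4.96 ± 0.133 and 4.63 ± 0.283 CPM per kb (SD, n = 3 each). This order was the same in both groups and with all annotated exons as the length. Nearly all the reads of the STAT5 pair were on STAT5B, with 405 to 459 reads per library. STAT5A, its close paralog and neighbour, had 0 to 2 reads in any library. Reads that align equally well to both copies were left out by the counting, so the split between them is uncertain.

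**Figure D3:**
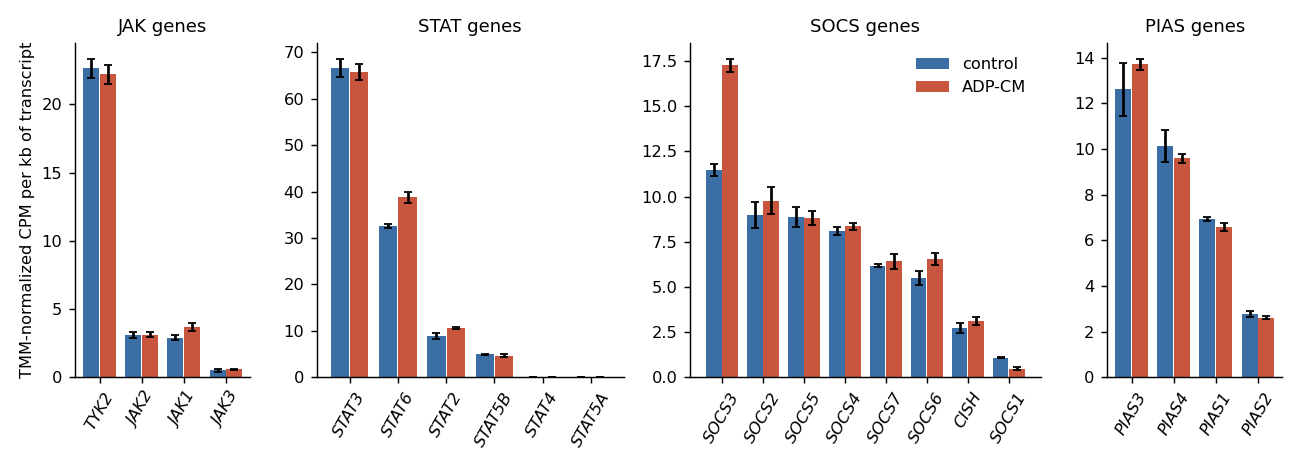
Mean TMM-normalized CPM per kb of the canonical transcript with SD (n = 3 libraries per group) for the JAK, STAT, SOCS and PIAS genes reported here, ordered by the control level. TYK2 and STAT3 lead their panels, and SOCS3 leads the SOCS genes at 11.5 in control and 17.3 in ADP-CM.

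In the SOCS family SOCS3 was the highest per kilobase, at 11.5 ± 0.325 CPM per kb in control cells and 17.3 ± 0.374 with ADP-CM (SD, n = 3 each). SOCS3 made up 21.7% ± 0.661 of the family in control and 28.4% ± 0.589 in ADP-CM. In control SOCS2 at 8.99 ± 0.714 and SOCS5 at 8.86 ± 0.557 were neighbours that did not differ beyond their spread (SD, n = 3 each). CISH at 2.72 ± 0.267 and SOCS1 at 1.09 ± 0.0516 CPM per kb in control were the lowest. PIAS3 led the PIAS family with 38.8% ± 1.75 in control and 42.2% ± 0.435 in ADP-CM, but with all annotated exons as the length PIAS4 was above it in control (37.4% against 32.6%) and level with it in ADP-CM (35.7% each). With that length SOCS2 was below SOCS4, SOCS5, SOCS6 and SOCS7.

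Pairs of genes were also compared within each library as log2 ratios, which do not depend on the scaling between libraries. The exact two-sided permutation test over 3 against 3 libraries cannot give a p under 0.10, and the 8 pairs were adjusted together. The ratio of SOCS3 to STAT3 rose from -3.38 ± 0.0686 in control to -2.77 ± 0.0676 under ADP-CM (SD, n = 3 each, exact permutation p = 0.1, adjusted 0.133). That is 1.52-fold more SOCS3 read per STAT3 read, with no overlap between groups. SOCS3 also gained 0.47 on SOCS2 on the log2 scale and STAT6 gained 0.27 on STAT3, while JAK2 and TYK2 changed by -0.33 and -0.37 relative to JAK1. CISH gained 0.29 on STAT5B, which was 0.18 without control replicate 1. None of these 6 ratios overlapped between groups and each had the same exact permutation p of 0.1. The share of all gene pairs without overlap was not computed, while 45.5% of single tested genes did not overlap. Except for CISH to STAT5B, each of the 6 contains SOCS3, JAK1 or STAT6. These were already called from the same counts, so the ratios are no separate support for them. The ratio of CISH to SOCS2 differed by 0.07 and overlapped (exact permutation p = 0.8), and the difference turned to -0.08 without control replicate 1 and to -0.02 without ADP-CM replicate 3. The ratio of STAT5B to STAT3 also overlapped, with -0.08 (exact permutation p = 0.2).

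Of 12 further JAK, STAT, SOCS and PIAS genes 10 were tested, and edgeR called 2 of them higher and 1 lower. That is 30% of them, near the 26.5% called over all tested genes. SOCS1, the inhibitor of interferon receptors and JAKs, had 21, 24 and 23 reads in control and 11, 13 and 9 in ADP-CM, without overlap. SOCS1 had a log2 fold change of -1.16 with an interval of -1.78 to -0.54 (adjusted p = 0.00191, edgeR), opposite in sign to SOCS3. Its call was lost with DESeq2 (adjusted p = 0.0361) and without control replicate 2 or ADP-CM replicate 3 (edgeR, adjusted p = 0.0124 and 0.0137), where its log2 fold change was -1.13 and -1.03. SOCS6 rose by 0.25 on the log2 scale (adjusted p = 0.000202, edgeR). STAT2, which carries the signal of type I interferon, rose from 39.3 ± 2.78 to 46.6 ± 0.965 CPM (SD, n = 3 each). Over the tested 10 the median log2 fold change was 0.02.

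Around the pathway, edgeR called 23.8% of the tested receptors, 16.7% of the regulators and 20% of the ligase subunits, beside 26.5% of all tested genes, so these counts are no result about the lists. Of 28 receptor genes 21 were tested, with 2 higher and 3 lower. LIFR rose by 0.61 and OSMR, the oncostatin M receptor, by 0.18 on the log2 scale. IL6ST, which encodes gp130, fell by 0.15, and the interferon receptor chains IFNAR2 and IFNGR1 fell by 0.23 and 0.14. The IFNAR2 and IFNGR1 calls were lost with DESeq2 (adjusted p = 0.0406 and 0.0544). In edgeR the IFNAR2 call was also lost without control replicate 1 or 3 or ADP-CM replicate 1 (log2 fold change -0.22 to -0.21), and the IFNGR1 call without control replicate 2 or 3 or ADP-CM replicate 1 or 2 (-0.15 to -0.09). Of 18 regulators 2 were higher and 1 was lower. IRF9, the DNA-binding partner of STAT2, rose from 4.98 ± 0.234 to 7.41 ± 0.401 CPM (SD, n = 3 each). CBL, a ubiquitin ligase that downregulates receptors, rose by 0.25, and NMI, which binds STATs, fell by 0.33 on the log2 scale. Of the 5 subunits of the ligase that SOCS proteins assemble only TCEB2 (elongin B) passed, with 0.12 on the log2 scale, and its call was lost with DESeq2 (adjusted p = 0.0173) and without control replicate 1 or 2 or ADP-CM replicate 1 or 3 (log2 fold change 0.10 to 0.12). The median log2 fold changes of the 3 lists were 0.02, -0.01 and -0.01.

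A list of 22 known STAT3 and STAT5 target genes held 20 tested ones, of which 8 were higher and 4 lower in ADP-CM. Their median on the log2 scale was 0.06. The share called was 60%, against 26.5% of all tested genes. DESeq2 called 7 of the 19 targets it tested, or 36.8%, against 16.2% of all genes it tested. The list was chosen with earlier results of these data known, so neither share is a test of the targets as a set. The shares were also not compared with genes of like read count. With 6454 to 7098 reads per library, CCND1 was called at a log2 fold change of only -0.07. MYC rose from 258 ± 0.502 to 322 ± 6.11 CPM, VEGFA from 69.8 ± 0.0436 to 91.3 ± 0.341 and TIMP1 from 139 ± 1.49 to 168 ± 2.49 CPM (SD, n = 3 each). JUNB, an immediate response gene of STAT3, fell from 167 ± 5.59 to 143 ± 4.30 CPM and IRF1, an interferon response factor, from 62.5 ± 1.10 to 49.6 ± 1.27 CPM (SD, n = 3 each). None of the 12 called targets passed 1.5-fold. Many of these genes answer to other pathways too.

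**Figure D4:**
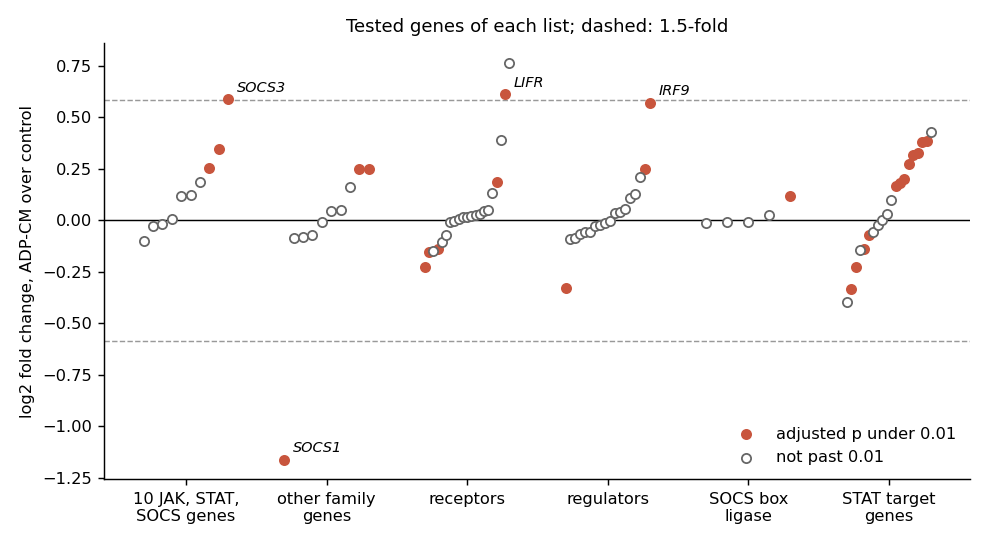
Log2 fold change of every tested gene in the 10 JAK, STAT and SOCS genes and in the 5 lists around them, with filled points past an adjusted p-value of 0.01 (edgeR) and dashed lines at 1.5-fold. SOCS1 is the lowest point, at -1.16. SOCS3, at 0.59, lies below 2 receptors, LIFR at 0.61 and IL11RA at 0.77, of which IL11RA did not pass.

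The tested genes whose pattern over the 6 libraries lay closest to that of SOCS3 were PHLDB2, ALDH1A3 and DBN1. Their root mean square distances from it were 0.028, 0.031 and 0.035 on the log2 CPM scale after centring. Their log2 fold changes were 0.58, 0.55 and 0.58. The distance includes the difference between the groups, so like fold changes follow from the choice. Shared regulation was not tested.

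Between 16262614 and 18363033 reads per library lay on genes. Reads on no gene made up 10.3% ± 0.0528 of all counted reads in control libraries and 11.5% ± 0.0331 with ADP-CM (SD, n = 3 each). The part of this in the results was not tested. All 8 epithelial markers had enough reads to be tested. Of these, 5 were lower and 2 higher with ADP-CM, which is 87.5% called beside 26.5% of all tested genes. KRT19 fell by 0.85 on the log2 scale and MUC1, with 12 to 68 reads per library, rose by 1.27, both past 1.5-fold. The part of these markers in the results was not tested, and their summed level was 4144 to 4217 CPM in control and 3490 to 3539 in ADP-CM. Markers of other cells were mixed. ADIPOQ, LEP and CIDEA of adipocytes and KDR of endothelium had 0 reads in every library, and PTPRC of leukocytes, PECAM1 of endothelium and COL1A2 and PDGFRA of stroma had at most 1. Others were well counted. CDH5, listed as endothelial, had 985 to 1127 reads per library and did not pass (adjusted p = 0.0286, edgeR). COL1A1, listed as stromal, had 1005 to 1424 reads and rose by 0.30 on the log2 scale. CD68, listed as leukocyte, had 115 to 214 reads and rose by 0.53, and LIPE, listed as adipocyte, had 63 to 109 and fell by 0.62. The part of these markers in the results was not tested. Of the 9 adipocyte markers 1 was tested, of the 7 stromal 2, of the 7 leukocyte 1 and of the 5 endothelial 1. Summed levels were 5.79 to 7.19 CPM in control and 4.42 to 5.22 in ADP-CM for adipocytes. They were 61.5 to 68.4 and 78.3 to 79.2 for stroma and 7.08 to 8.53 and 10.03 to 12.2 for leukocytes. For endothelium they were 60.9 to 67.1 and 54.6 to 62.2. Each sum was mostly 1 gene. Mean CPM in control and ADP-CM was 5.77 and 3.76 for LIPE and 62.3 and 76.7 for COL1A1. It was 7.43 and 10.7 for CD68 and 63.5 and 58.6 for CDH5.

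**Figure D5:**
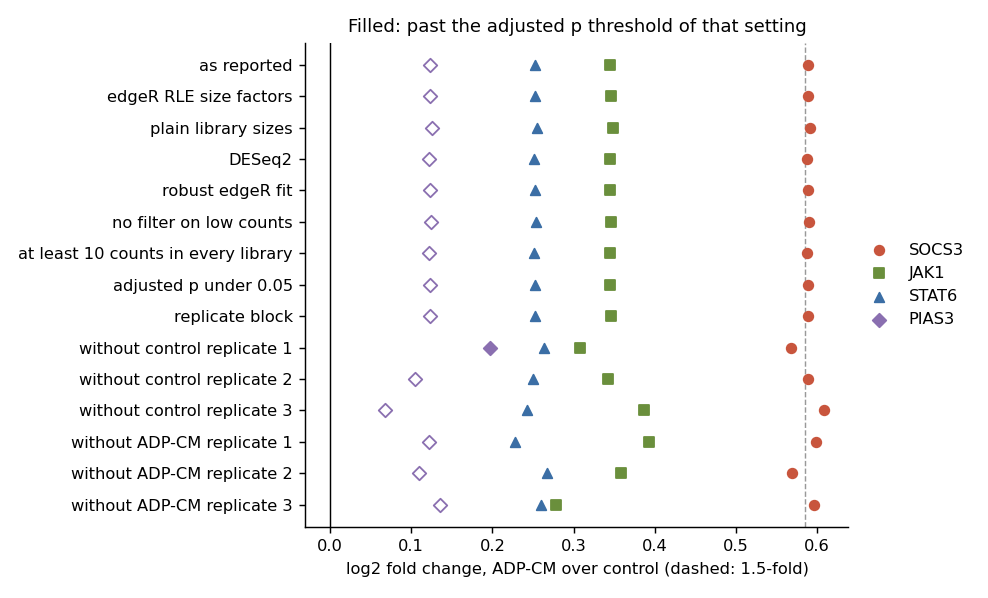
Log2 fold change of SOCS3, JAK1, STAT6 and PIAS3 as reported and under each alternative, filled where the gene passed that setting's adjusted p-value. SOCS3 stays between 0.57 and 0.61 around the 1.5-fold line, and PIAS3 is filled in 1 setting, without control replicate 1.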

How the data were processed

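Stranded poly(A) RNA libraries of RL95-2 cells were read as single reads of 50 bases. The authors aligned them to hg19 with TopHat2 and deposited raw counts per RefSeq gene from HTSeq, 1 table per library, without normalization. Versions and the strand setting were not given in the sources used here. The 5 summary lines of each table name no gene and were left out of library sizes (reads on no gene 10.2% to 11.6%, ambiguous 0.709% to 0.721%, not uniquely aligned 20.5% to 20.8% of all counted reads).

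In R 4.3.3, edgeR 4.0.16 was run on all genes with TMM and filterByExpr, followed by its quasi-likelihood test of ADP-CM against control. P-values were adjusted after Benjamini and Hochberg over all genes tested, and 0.01 was the threshold of a call, with a fold change of 1.5 as a further limit. Standard errors and 95% intervals come from the same fit. CPM values are TMM-scaled means with SD. Ratios used log2 CPM with a prior count of 2. Lengths are those of the canonical transcripts in GENCODE release 44 on GRCh37, for which HTSeq's exon models may differ. No 2 replicates agreed within sampling noise (chi-square test), so all 6 libraries were kept. The spread was small, with a chi-square per degree of freedom of 1.23 to 2.03. The common coefficient of variation between libraries was 1.67% in edgeR. Spread beyond sampling noise does not show that the replicates were separate cultures. Intervals cover these libraries only, and reads carry no molecular identifiers.

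The 10 genes and the lists around them were chosen with earlier results of these data known. All 10 were named, with up to 5 called genes of each list by p-value and the 3 genes nearest to the called member with the smallest p-value. Alternatives were other size factors, DESeq2 1.42.0, a robust fit, other filters, a threshold of 0.05, the replicate number as a block and each library left out. The programs were tested on simulated data. Of these families 1 gene is not reported here and was left out of the list after its values were known. Blots, organoids and xenografts were not analysed here.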

Additional observations from a re-analysis of the deposited data

Results flagged for a closer look

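The share of reads on no gene, which enters no comparison between genes, was higher in ADP-CM in 3 of 3 libraries, at 11.5% against 10.3% in control. It marks reads that the counting placed on no annotated exon and was not followed further. Whether it includes reads on the opposite strand of exons depends on the strand setting, which was not given. Groups of 3 libraries are too small for a test of single outlying libraries.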

How the results depend on the processing

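SOCS3, JAK1 and STAT6 kept their direction and their call in all 14 alternatives, and no member was called lower in any. PIAS3 was the only member to gain a call, so that leaving out single libraries gave 3 to 4 members called higher and 0 to 1 past 1.5-fold (0 without control replicate 1 or ADP-CM replicate 2). The sign of changes near 0 turned: JAK2 ran from -0.0394 to 0.0683 and STAT3 from -0.0392 to 0.00349 on the log2 scale over the libraries left out. Receptor genes called fell from 5 to 3 with DESeq2, rose to 9 at a threshold of 0.05, and ranged from 3 to 6 with a library left out (3 without control replicate 3 or ADP-CM replicate 1). Ligase subunits called went from 1 to 0 with DESeq2 (1 at an unadjusted p under 0.05) and from 0 to 1 with a library left out, 0 without control replicate 1 or 2 or ADP-CM replicate 1 or 3. Target genes called fell from 12 to 7 with DESeq2 and ranged from 8 to 12 with a library left out. Over all genes DESeq2 called 1978 where edgeR called 3357, and 178 in place of 288 past 1.5-fold; the cause was not tested. Other scalings moved the median of all genes by at most 0.003.

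With the replicate number as a block, 3 members were called higher, 0 lower and 1 past 1.5-fold, and 3 other family genes, 5 receptors, 3 regulators, 1 ligase subunit and 12 targets were called, as without it, while all genes called went from 3357 to 3502. Libraries with the same number had correlations of their deviations of 0.07, 0.01 and 0.10. Those with different numbers had correlations from -0.09 to 0.03. All these values are small, so whether the number marks a pairing could not be told. Not every library correlated best with its own number, as ADP-CM replicate 2 did so with control replicate 1. Among the 10 genes CISH had the fewest reads and the widest interval. Among the others named, SOCS1 rests on 9 to 24 reads per library, IL11RA on 16 to 34 and JAK3 on 39 to 64. LIFR, with 79 to 145 reads, and IRF9, with 80 to 140, were counted about as little as CISH.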
